A study of Mus musculus with 3 samples.

Results

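Immunoglobulin transcripts and the joining chain were followed through 2 single-cell libraries of mouse skin. The 6 genes were Igha, Ighm, Igkc, Iglc2, Jchain and Mzb1, of 31253 gene rows in each skin matrix, which held 392 immunoglobulin rows in all. They were selected on measured counts: how many cells held most of each gene's counts and how the low counts spread over the other cells, by library. Those counts are given below as a description, with no test.

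Both skin libraries came from mice treated with MC903, a vitamin D analogue that causes atopic dermatitis-like inflammation when applied to skin. The RHS library came from mice that also received RHS, which the labels do not spell out, and the control library from mice given MC903 alone. The cells were enriched with CD45 beads and captured on the BD Rhapsody microwell system. The preparation text in the labels names EtOH- and MC903-treated mice; no EtOH library was analysed here. Strain, age, sex and how many mice gave each skin sample are not given in the labels. One more library held nuclei of sympathetic ganglia pooled from 30 mice given RHS and MC903. The RHS skin library held 13339 barcodes and 52762575 unique molecular identifiers (UMIs, each counting 1 captured transcript), and the control skin library 12979 barcodes and 55200785 UMIs. Their median depths were 3050 and 3209 UMIs per barcode, in RHS and control skin. The libraries shared 5 barcodes. With 1 library per group, RHS and the library cannot be told apart, and the 95% intervals given cover counting error alone.

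Antibodies are built from paired heavy and light chains. Each chain joins a variable (V) segment to a constant region, and the heavy-chain constant region sets the class: Ighm encodes the constant region of IgM and Igha that of IgA. Igkc encodes the kappa light-chain constant region and Iglc2 one of the lambda ones. Plasma cells, the antibody-secreting descendants of B cells, devote much of their mRNA to these chains. Jchain encodes the joining chain, which links IgA and IgM units into polymers, and Mzb1 an endoplasmic reticulum protein that assists antibody assembly and secretion.

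The joining chain is attached through the tailpiece at the end of the secreted heavy chains of IgA and IgM. The last 60 coding bases before the stop codon of both secreted forms are shown because Igha, Ighm and Jchain share this role. They were read from GENCODE vM21 transcripts on chromosome 12, and capitals mark the codon before the last one, which encodes the cysteine that binds the joining chain.
Igha: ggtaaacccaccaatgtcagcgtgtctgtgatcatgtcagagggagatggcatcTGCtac
Ighm: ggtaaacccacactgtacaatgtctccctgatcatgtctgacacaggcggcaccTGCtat
The 2 tails differed at 19 of 60 bases (68.3% identity). The lambda constant genes on chromosome 16 were closer. The same stretch of 3 of them is shown because it bears on how far Iglc2 counts can be separated from its neighbours; capitals mark bases that differ from Iglc2.
Iglc2: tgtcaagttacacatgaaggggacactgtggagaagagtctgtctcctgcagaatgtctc
Iglc3: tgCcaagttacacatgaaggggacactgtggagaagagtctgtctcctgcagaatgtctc
Iglc1: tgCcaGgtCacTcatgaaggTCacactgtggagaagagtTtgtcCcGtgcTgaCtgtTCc
Iglc3 differed from Iglc2 at 1 of these bases and Iglc1 at 13. Over the 317 aligned coding bases Iglc3 matched Iglc2 at 96.5%. Reads of Iglc2 and Iglc3 may therefore be hard to tell apart, but how reads were assigned to the 2 genes was not examined.

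The heavy-chain gene of IgA was held by 8 barcodes of the RHS library. Igha had 6827 UMIs in the RHS library, against 165 in the control library. In the RHS library the 8 barcodes with most Igha held 1952, 1300, 916, 748, 634, 539, 360 and 180 UMIs, and the next barcode 6. In the control library the highest barcode held 10. No barcode of either library lay between 10 and 180 UMIs. The 8 RHS barcodes held 6629 Igha UMIs, or 97.1% of that library's total, and 3 of them held 50% or more.

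Igkc and Jchain followed the same 8 barcodes. Igkc had 11673 UMIs in the RHS library, against 783 in the control library. The 8 barcodes held 11015 of the RHS UMIs, or 94.4%, at 530 to 3081 UMIs each. Outside them the highest barcode held 32 Igkc UMIs in RHS skin and 26 in control skin. Jchain had 1852 UMIs in RHS skin, against 9 in control skin. The 8 barcodes held 1840 of the RHS UMIs, or 99.4%, at 73 to 665 each. Every other barcode with Jchain held 1 UMI, namely 12 barcodes in RHS skin and 9 in control skin.

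Ighm was spread widely in both libraries. It had 1736 UMIs over 967 barcodes in RHS skin, against 1886 UMIs over 927 barcodes in control skin. The barcodes with most Ighm that together held 50% of its UMIs numbered 187 in RHS skin and 162 in control skin. The 8 barcodes rich in Igha held 136 Ighm UMIs, or 7.83% of the RHS total. Iglc2 was sparse, with 48 UMIs in 13 barcodes of RHS skin and 27 UMIs in 17 barcodes of control skin. Mzb1 had 23 UMIs in 10 barcodes of RHS skin, 19 of them in the 8 barcodes, and was at 0 in control skin. A further count set this against all genes with at least 1000 UMIs in a library. In the RHS library 11 of 5787 such genes (0.19%) had 50% of their UMIs in 10 or fewer barcodes, and in the control library 13 of 6300 (0.206%). Igha, Igkc and Jchain were among the 11 in RHS skin, and no member was among the 13 in control skin; the choice of the genes used these counts.

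**Figure D1:**
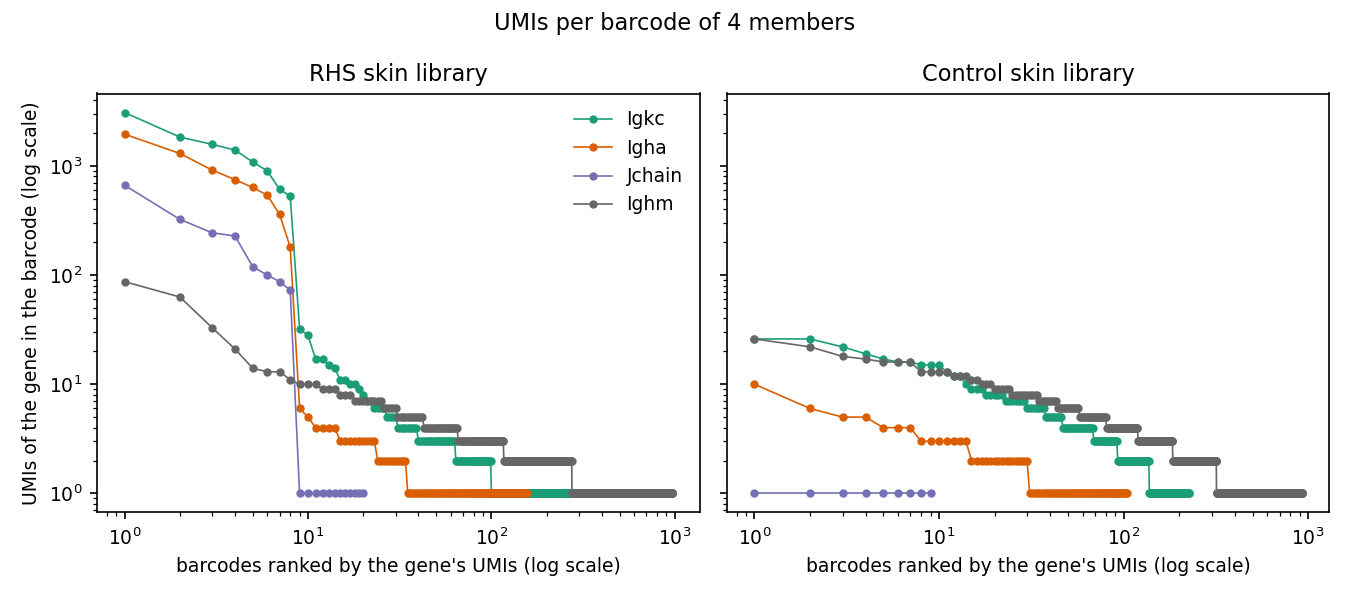
UMIs per barcode (vertical axis, log scale) of Igkc, Igha, Jchain and Ighm against the rank of the barcode for that gene (horizontal axis, log scale), in RHS skin at the left and control skin at the right. In RHS skin Igkc, Igha and Jchain break off after 8 barcodes, while in control skin no barcode exceeds 26 UMIs of any of the 4 genes.

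Summed over all barcodes, the level of 5 of the 6 genes was past 1.5-fold higher in RHS skin. The background was 3.92% of 16290 genes with at least 20 UMIs over both libraries, and 16.6% were past 1.5-fold lower. Since the choice of genes used this contrast, nothing is read from the count. Igha stood at 129 CPM, that is UMIs of the gene per 1000000 UMIs of the library (interval 126 to 132), in RHS skin and 2.99 CPM (2.55 to 3.48) in control skin, a ratio of 43.3 (37.1 to 50.8). Igkc stood at 221 CPM (217 to 225) in RHS skin and 14.2 CPM (13.2 to 15.2) in control skin, a ratio of 15.6 (14.5 to 16.8). Jchain stood at 35.1 CPM (33.5 to 36.7) in RHS skin and 0.163 CPM (0.0746 to 0.310) in control skin, a ratio of 215 (113 to 472). These ratios rested on the 8 barcodes.

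Of the other members, Ighm stood at 32.9 CPM (31.4 to 34.5) in RHS skin and 34.2 CPM (32.6 to 35.7) in control skin, and the interval of its ratio, 0.902 to 1.03, included 1. Scaling by the median of ratios over genes turned that ratio from 0.963 to 1.04. Iglc2 stood at 0.910 CPM in RHS skin and 0.489 CPM in control skin, a ratio of 1.86 (1.14 to 3.10). Mzb1 was 8.02-fold higher in RHS skin with the 0 of control skin set at a floor of 3 counts per library. The exact interval of its ratio began at 6.01. The median log2 ratio of all genes tested was -0.11.

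Without the 8 barcodes the ratios of Igkc, Iglc2 and the sum were below 1, the interval of Iglc2 including 1. Igkc had 658 UMIs in RHS skin and 783 in control skin, a ratio of 0.880 (0.792 to 0.977), and Ighm 1600 and 1886 UMIs, a ratio of 0.888 (0.831 to 0.95). Igha had 198 UMIs in RHS skin and 165 in control skin, a ratio of 1.26 (1.02 to 1.55). Jchain had 12 UMIs in RHS skin and 9 in control skin, a ratio of 1.40 (0.540 to 3.75). Iglc2 had 15 UMIs in RHS skin and 27 in control skin, a ratio of 0.582 (0.288 to 1.13). The 6 genes together had a ratio of 0.908 (0.860 to 0.958), against 8.08 (7.77 to 8.40) with the 8 barcodes. Scaled by the median of ratios and without all high-count barcodes, defined next, the sum had a ratio of 0.985 (0.930 to 1.04), and its interval included 1. The directions of these low counts turned with the barcodes left out. With those of 10 or more member UMIs left out, Igkc had a ratio of 1.09 and the sum one of 1.03. Over barcodes with at most 2 UMIs of each member, Igkc had a ratio of 2.19, Ighm 1.22 and the sum 1.37.

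Barcodes with at least 20 UMIs summed over the 6 genes are called high-count here. RHS skin had 15 of them, or 0.112% of its barcodes (exact Clopper-Pearson interval 0.0630 to 0.185), and control skin 11, or 0.0848% (0.0423 to 0.152). The lowest had 20 UMIs, and the highest below the minimum had 18 in RHS skin and 19 in control skin. The order of the libraries depended on this minimum, with 28 barcodes in RHS skin and 46 in control skin at 10 UMIs, and 10 and 0 at 50 UMIs. They fell into 2 kinds. The 8 IgA-high barcodes of RHS skin, with 100 or more Igha UMIs, were 0.06% of that library (0.0259 to 0.118). Control skin had 0 of 12979 barcodes of this kind, with an exact interval of 0 to 0.0284%. The upper end of that interval lay above the lower end of the RHS interval. The limit of 100 UMIs was chosen after the counts were seen, and a limit of 20 gave the same 8 and 0.

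In the IgA-high barcodes the 6 genes made up 9.16% to 61.0% of all UMIs, with a median of 49.2%. The one with most held 5718 such UMIs of 9367, of which Igkc gave 32.9%, Igha 20.8% and Jchain 7.1% of all its UMIs. The one with fewest held 799 of 8719 UMIs, of which Igkc gave 6.08%, Igha 2.06% and Jchain 0.998%. The ratio of Igha to Igkc UMIs ran from 0.340 to 0.707, and that of Jchain to Igha UMIs from 0.159 to 0.483. Both ratios varied less than the UMI counts themselves. The 18 other high-count barcodes had 0.595% to 2.85% of their UMIs from the 6 genes, below the lowest IgA-high barcode.

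**Figure D2:**
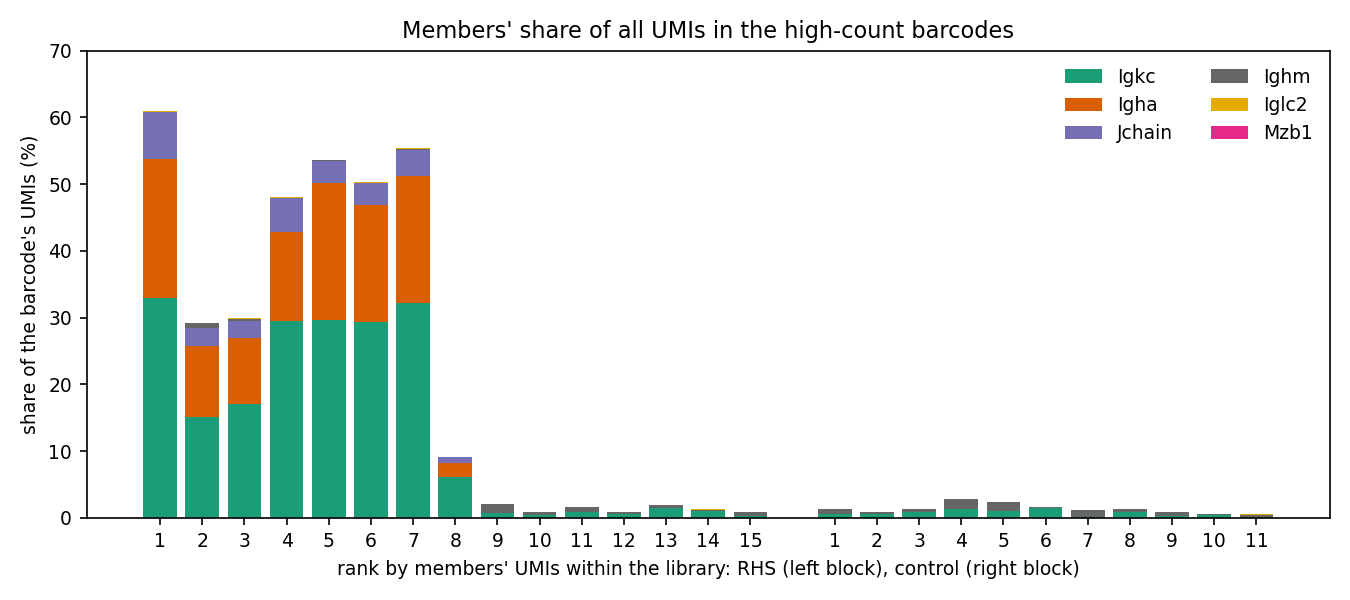
Share of each high-count barcode's UMIs (vertical axis, percent) that came from each of the 6 genes, as stacked bars, with the 15 barcodes of RHS skin at the left and the 11 of control skin at the right, ranked by the members' UMIs. The first 8 RHS bars reach 9.16% to 61.0% and hold Igkc, Igha and Jchain, while the other 18 stay at or below 2.85% and show no Jchain.

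The other high-count barcodes carried Ighm and Igkc without the joining chain. There were 7 in RHS skin and 11 in control skin. Summed over them, RHS skin had 125 Ighm, 129 Igkc, 0 Igha and 0 Jchain UMIs, and control skin 154 Ighm, 162 Igkc, 1 Igha and 0 Jchain UMIs. All 7 and all 11 had a UMI of Cd79a, a signalling part of the B cell receptor, and 6 of 7 and 9 of 11 had Ms4a1, which encodes the B cell surface protein CD20. Ighd, the constant region of IgD that naive B cells carry beside IgM, was found in 4 of 7 in RHS skin and 5 of 11 in control skin.

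V segments were nearly all in the IgA-high barcodes. Of 81 UMIs of V, diversity and joining rows in RHS skin, 80 were in the 8 barcodes, and control skin had 3 such UMIs in all. The barcode with most member UMIs had 10 UMIs of 1 heavy V row and 9 of 1 kappa V row, neither of which any other barcode held. Ighv2-6 was the leading heavy segment of 4 barcodes, the second, the third, the fifth and the sixth by member UMIs, with 3, 2, 1 and 2 UMIs. All 8 Ighv2-6 UMIs of both libraries were in these 4. The lambda segment Iglv1 had 30 UMIs, all in 4 IgA-high barcodes, and led the light-chain rows of the second (12 UMIs), the third (9) and the fourth (2). Their constant rows were nearly all kappa. In the same order they held 1839, 1575 and 1397 Igkc UMIs, against 0, 4 and 6 of Iglc2, 0 of Iglc1 and at most 1 of Iglc3. The fourth had 1 UMI of Ighv1-38 as its leading heavy segment. V segments resemble each other, so reads of one can be counted under another.

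A lambda constant gene marked 1 of the 8. The IgA-high barcode with fewest member UMIs held all 110 Iglc1 UMIs of RHS skin and 9 UMIs of Iglv2, together with 530 Igkc UMIs. Control skin had 4 Iglc1 UMIs. Of the other constant rows Ighd had 62 UMIs in RHS skin and 70 in control skin, none of them in the IgA-high barcodes, a ratio of 0.927 (0.648 to 1.32). The other 7 rows looked at had fewer than 20 UMIs in each skin library. Among them Iglc3 had 15 UMIs in RHS skin and 11 in control skin. Ighg1, Ighg2c and Iglc4 were at 0 in both, which allows up to 3 counts in a library, and Ighe had 2 UMIs in RHS skin and 0 in control skin.

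The IgA-high barcodes were unlike each other in sequence. Any 2 of their barcodes of 27 bases differed at 15 bases or more, shared none of their 3 stretches, and none occurred in the control library. They held 1891 to 12169 UMIs and 568 to 2955 genes, with 1.80% to 5.22% mitochondrial UMIs. None was called a doublet, but their doublet scores, 0.172 to 0.227, lay above the RHS library's median of 0.0299. The transcript of Ptprc, which encodes the CD45 protein used for bead selection, was found as 1 UMI in 4 of the 8.

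With immunoglobulin rows, Jchain and Mzb1 left out of the clustering, all 8 fell into 1 of 26 clusters. That cluster mixed several cell types and was led by the fat genes Cfd, Car3 and Adipoq, and held 22 of the 26 high-count barcodes. Clustered again on its own, an alternative added after seeing the data, it set the 8 in a subgroup of 26 RHS and 9 control cells that was led by haemoglobin genes. Of the haemoglobin gene Hbb-bs, 1 of the 8 had 1 UMI and the others 0. The subgroup also had Pou2af1, a B-lineage transcriptional coactivator, and Eaf2, an elongation factor associated gene, among its top 10 genes. The IgA-high barcodes are therefore given no cluster name.

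Genes of antibody-secreting cells were high in the IgA-high barcodes. Of 20 listed plasma cell genes, 19 had a UMI there and 13 stood at 10 times or more the level of the barcodes that were not high-count. In the other high-count barcodes 3 of the 20 did so. Of all 16290 genes with at least 20 UMIs, 1.48% stood at 10 times or more in the IgA-high barcodes and 1.63% in the other high-count barcodes. Xbp1, a transcription factor of the secretory programme, stood at 2896 CPM in the IgA-high barcodes, with 3 to 81 UMIs in each of the 8, against 150 CPM in the barcodes that were not high-count. Pou2af1 stood at 1382 CPM in the IgA-high barcodes and 1.67 CPM in those not high-count. Derl3, which takes part in the removal of misfolded proteins from the endoplasmic reticulum, stood at 227 CPM and 1.27 CPM in the same order. Cd38 had no UMI in the 8.

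Genes of B cells showed the reverse order between the 2 kinds. Of 19 B cell genes in the files, 13 had no UMI in the IgA-high barcodes, Ms4a1 among them, and 4 (Cd79a, Cd79b, Fcrla and Vpreb3) stood there at 10 times or more the level of the barcodes not high-count. In the other high-count barcodes 15 of the 19 did so. Of the 15 with at least 20 UMIs, the set behind the shares of 1.48% and 1.63% of all genes, 3 did so in the IgA-high and 14 in the other high-count barcodes. Cd79a stood at 227 CPM in the IgA-high barcodes and 1653 CPM in the other high-count barcodes. Ms4a1 stood at 0 and 795 CPM in the same order. The barcodes were chosen on the members' own counts, so these levels are a description of 8 and 18 barcodes.

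**Figure D3:**
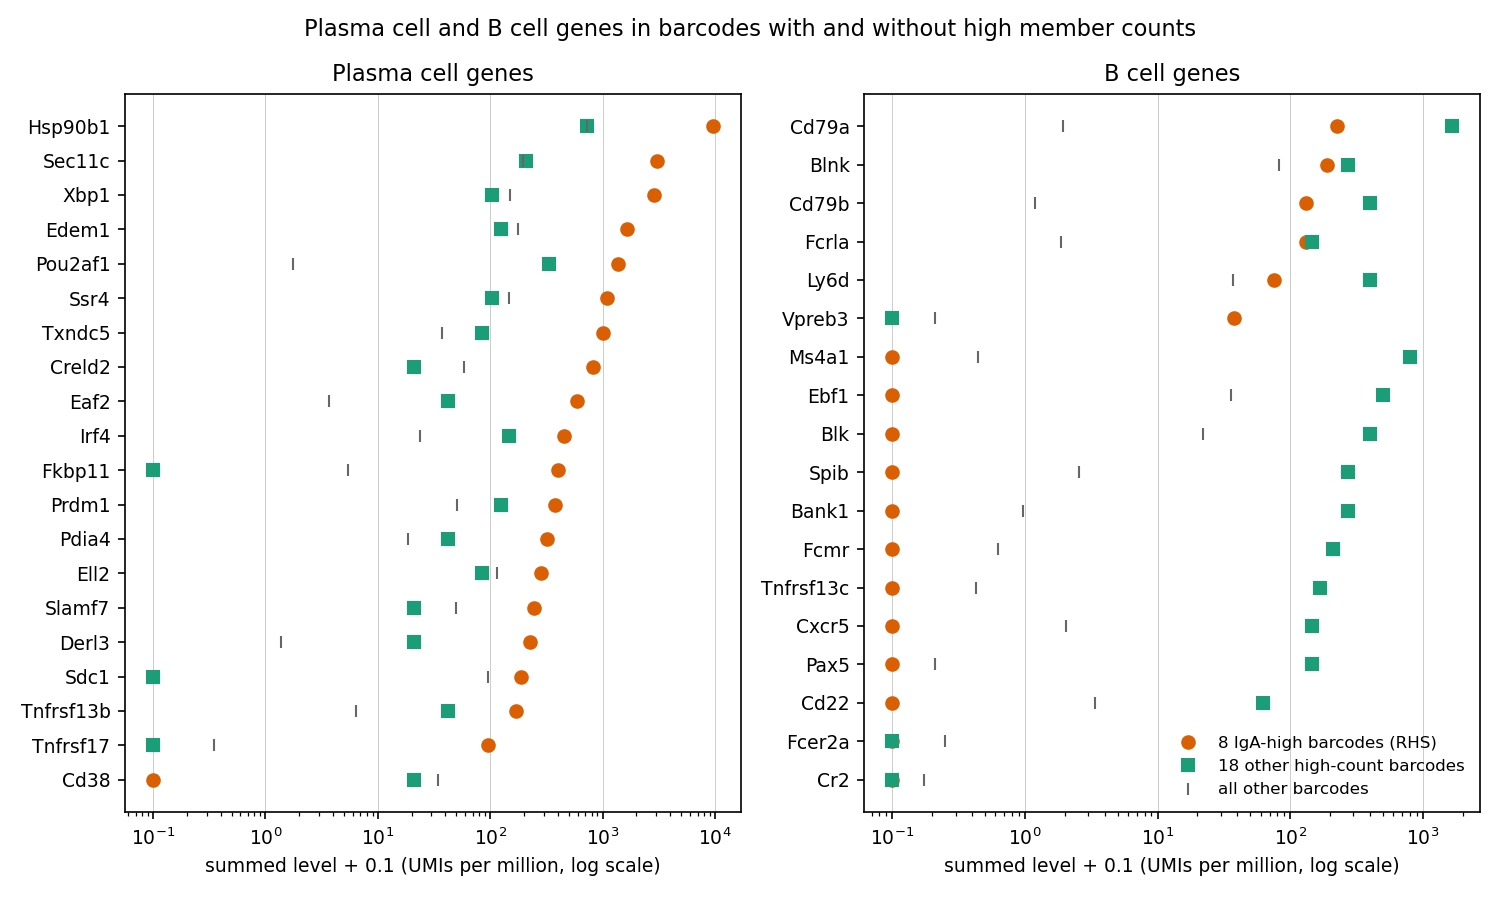
Level (horizontal axis, CPM + 0.1 on a log scale) of each plasma cell gene at the left and of B cell genes at the right, summed over the 8 IgA-high barcodes (circles), the 18 other high-count barcodes (squares) and all other barcodes (ticks). Circles lie furthest right for 19 of 20 plasma cell genes; most B cell genes have a circle at the left edge, which is 0 UMIs.

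Over the whole libraries the lists did not follow the 8 barcodes. Of the 20 plasma cell genes, 2 were past 1.5-fold higher in RHS skin and 1 past 1.5-fold lower, with a median log2 ratio of 0.12. Among all genes tested, 3.92% were past 1.5-fold higher and 16.6% past 1.5-fold lower. Tnfrsf17, the receptor BCMA that keeps plasma cells alive, had 26 UMIs in RHS skin and 6 in control skin, a ratio of 4.53 (1.82 to 13.5), and 5 of the 26 were in the 8 barcodes. Cd38 had a ratio of 2.09 (1.95 to 2.24). Fkbp11, a folding enzyme of secretory cells, had the lowest ratio, 0.527 (0.442 to 0.627), and Sdc1, the plasma cell surface protein CD138 that keratinocytes also carry, 0.741 (0.712 to 0.770).

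Of 15 B cell genes with enough counts, none was past 1.5-fold higher in RHS skin and 7 were past 1.5-fold lower, with a median log2 ratio of -0.40. The background was 3.92% of genes past 1.5-fold higher and 16.6% past 1.5-fold lower. Blk, a kinase that gamma-delta T cells also express, had a ratio of 0.401 (0.366 to 0.439). Cd22 and Bank1 had the highest ratios, 1.46 (1.17 to 1.81) and 1.29 (0.864 to 1.92).

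Beside these, B cell-like cells were a small group. The subgroup of the mixed cluster with 8 of 8 B cell markers held 22 cells in RHS skin and 60 in control skin, at median depths of 1293 and 1238.5 UMIs. Its top 10 genes included the muscle genes Acta1, Mylpf, Pvalb and Tnnc2 beside Cd79a, Ms4a1 and Bank1, and the part of muscle RNA in it was not tested. Igkc had a UMI in 17 of 22 of these cells in RHS skin and 45 of 60 in control skin, and Ighm in 16 of 22 and 42 of 60. Their summed Igkc level had a ratio of 1.18 (0.973 to 1.42), and their Ighm level one of 1.5 (1.22 to 1.85). Of the 150 Ighm UMIs of the RHS cells, 63 were in 1 cell, so the Ighm ratio rests in part on that cell. Jchain was at 0 in both libraries.

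The other lists bore on transport, class switching and survival of antibody-secreting cells. Of 13 such genes 8 had enough counts, none was past 1.5-fold higher in RHS skin and 1 past 1.5-fold lower, with a median log2 ratio of 0.03. The 1 lower gene was Ccl28, with 5 UMIs in RHS skin and 16 in control skin, a ratio of 0.327 (0.0937 to 0.934). For this list and the next, the background was 3.92% of all genes past 1.5-fold higher and 16.6% past 1.5-fold lower. Cxcl12, a chemokine that holds plasma cells in their niche, had a ratio of 1.49 (1.37 to 1.61), and Il6, a plasma cell survival cytokine, 1.18 (1.16 to 1.21). Fcgrt, the neonatal Fc receptor that recycles IgG, had a ratio of 0.741 (0.690 to 0.797), and Tnfsf13b, the survival factor BAFF, 1.00 (0.801 to 1.25). Pigr, which carries polymeric IgA across epithelia, had 0 UMIs in RHS skin and 3 in control skin. Of 10 plasmacytoid dendritic cell genes, a cell type also known to transcribe Jchain, 1 was past 1.5-fold higher in RHS skin and 1 past 1.5-fold lower. Dntt and Ccr9 had the highest ratios among those with at least 20 UMIs in a library, 1.38 (0.867 to 2.23) and 1.23 (0.938 to 1.62), and Ly6d and Bst2 the lowest, 0.490 (0.458 to 0.524) and 0.857 (0.790 to 0.929). Of these 10 genes, 6 had a UMI in the IgA-high barcodes. The median level of the list was 37.9 CPM there and 12.5 CPM in the barcodes not high-count. Ccr9 had 6 UMIs in the IgA-high barcodes, all in 1 of them, and the defining gene Siglech had no UMI.

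The low counts, those outside the 26 high-count barcodes, had a different order by cell class for each gene. Of the 5 members with enough counts, none was past 1.5-fold higher in RHS skin (background 3.87%) and 1, Iglc2, was past 1.5-fold lower (background 16.7%). Iglc2 had 5 UMIs in RHS skin and 17 in control skin. All 5 and 15 of the 17 were in the mixed cluster. Its B cell-like subgroup numbered 17 cells in RHS skin and 51 in control skin without high-count barcodes. Over that subgroup, high-count barcodes included, the Iglc2 level had a ratio of 1.72 (0.780 to 3.67). Cells were grouped by marker genes into 18 classes, and 4 of the 26 clusters stayed unnamed. One class, scored as type 2 conventional dendritic cells, is called by the leading genes of its 3 clusters, Lyz1, Cd209a and Fcrls. Its largest cluster, with 1546 cells in RHS skin and 1327 in control skin, had 3 of 8 of that type's markers and was led by Lyz1, Ear2, Fcrls and Retnla, which go against that name.

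Igha in the low counts was mostly in Langerhans cell-like cells, the antigen-presenting cells of the epidermis. They held 118 of the 192 low Igha UMIs of kept cells in RHS skin (61.5%) and 138 of 161 in control skin (85.7%), while being 4.58% of the cells in both libraries. Their level was 30.2 CPM (25.0 to 36.2) in RHS skin and 34.5 CPM (29.0 to 40.7) in control skin, a ratio of 0.876 (0.679 to 1.13). A UMI was found in 70 of 592 cells in RHS skin (11.8%, 9.33 to 14.7) and in 78 of 576 in control skin (13.5%, 10.9 to 16.6), at median depths of 6260.5 and 6532.5 UMIs. In the non-immune classes, which should lack Igha, it was found in 0.432% of 1388 cells in RHS skin and 0.149% of 2015 in control skin, at median depths of 3208 and 4928 UMIs. Thinned to 1000 UMIs, the shares of Langerhans cell-like cells with a UMI were 2.56% in RHS skin and 4.00% in control skin. With clusters cut at resolution 2.0 the unthinned shares were 19.7% in RHS skin and 21.0% in control skin.

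The light chain did not accompany Igha there. Langerhans cell-like cells had 5 Igkc UMIs in RHS skin and 8 in control skin, no Jchain UMI in either and no V segment UMI in either. Igha was thus 95.9% (90.8 to 98.7) of the Igha and Igkc UMIs in RHS skin and 94.5% (89.5 to 97.6) in control skin, against 37.6% (36.9 to 38.3) in the IgA-high barcodes. Ighg2b, the constant region of IgG2b, had 8 UMIs in RHS skin and 16 in control skin, all of them in Langerhans cell-like cells. Ighm was found in 31.4% of the Langerhans cell-like cells with Igha and 8.24% of those without in RHS skin, and in 28.2% and 7.63% in control skin. Cells with Igha were no deeper, with median depths of 5444 and 6359 UMIs with and without it in RHS skin, and 6112.5 and 6664 in control skin. Whether these counts came from antibody transcripts made by the cells was not tested.

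NK cell-like cells were the only other named class in which Igha exceeded 5 CPM in both libraries. They had 19.6 CPM (9.39 to 36.0) in RHS skin and 24.4 CPM (14.0 to 39.7) in control skin, from 10 and 16 UMIs in as many cells, with 0 and 4 Igkc UMIs beside them.

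Among the 18 classes, Ighm and Igkc in the low counts were highest in regulatory T cell-like cells, which suppress immune responses. Both were higher still in the B cell-like subgroup of the mixed cluster, which is outside the 18. Without its high-count barcodes, Ighm stood there at 2563 CPM (1926 to 3344) in 17 cells of RHS skin and 1931 CPM (1597 to 2314) in 51 cells of control skin, and Igkc at 3892 CPM (3096 to 4831) and 3498 CPM (3043 to 4002). In regulatory T cell-like cells Ighm stood at 287 CPM (261 to 314) in RHS skin and 358 CPM (332 to 385) in control skin, a ratio of 0.802 (0.712 to 0.902). A UMI was found in 202 of 519 cells in RHS skin (38.9%, 34.7 to 43.3) and in 252 of 541 in control skin (46.6%, 42.3 to 50.9), at median depths of 1898 and 2174 UMIs. Thinned to 1000 UMIs the shares were 19.6% and 25.7%, with 64 and 46 shallower cells left out. Single cells reached 11 Ighm UMIs in RHS skin and 16 in control skin. Igkc stood at 133 CPM (115 to 152) in RHS skin and 147 CPM (131 to 165) in control skin, a ratio of 0.9 (0.752 to 1.08).

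In these cells the 2 genes were partly in the same cells. Igkc was found in 24.8% of cells with Ighm and 18% of those without in RHS skin, and in 26.2% and 18.7% in control skin. Cells with Ighm were deeper, with median depths of 3371.5 and 1452 UMIs with and without it in RHS skin, and 3839.5 and 1751 in control skin. The B cell gene Cd79a had 1 UMI in the class in RHS skin and 2 in control skin, and V segments 0 and 1. In the non-immune classes Ighm was found in 0.360% of cells in RHS skin and 0.199% in control skin.

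Below regulatory T cell-like cells, Ighm came next among the 18 classes in NK cell-like cells, at 90.1 CPM (66.0 to 120) in RHS skin and 108 CPM (84.7 to 137) in control skin, and in mast cell-like cells, at 76.1 CPM (54.4 to 104) and 70.3 CPM (54.4 to 89.5). The intervals of these 2 classes overlapped in both libraries. Macrophage-like cells followed at 31.7 CPM (28.4 to 35.3) in RHS skin and 30.9 CPM (26.2 to 36.0) in control skin, then alpha-beta T and Langerhans cell-like cells. The Lyz1, Cd209a and Fcrls clusters stood at 17.2 CPM (15.2 to 19.5) in RHS skin and 20.0 CPM (17.7 to 22.5) in control skin. The interval of the Ighm ratio included 1 in the NK, mast and macrophage-like cells and in these clusters, and Igkc stayed under 7 CPM in all 4.

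**Figure D4:**
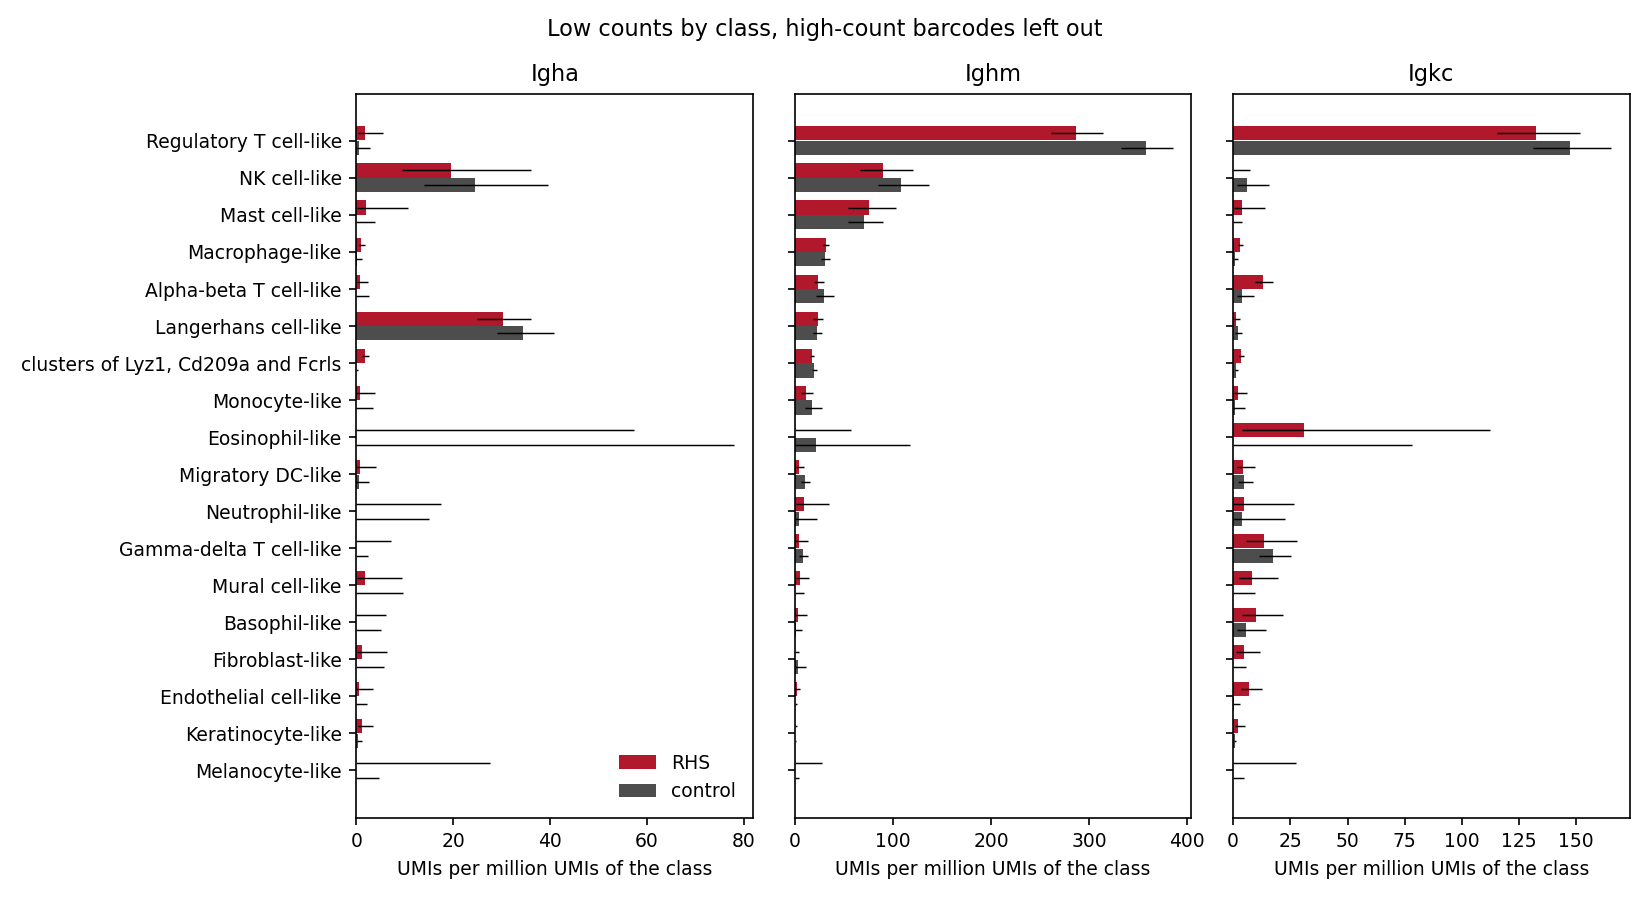
Level of Igha, Ighm and Igkc (horizontal axis, CPM of the class) in the 18 classes, high-count barcodes left out, with RHS above control and lines for exact Poisson 95% intervals. Of the classes shown, Igha is highest in Langerhans cell-like cells (30.2 CPM in RHS skin, 34.5 CPM in control skin) and Ighm and Igkc in regulatory T cell-like cells.

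Away from these classes, thin counts of Igha and Igkc were more frequent in RHS skin. The groups left out were picked after the counts were seen, so the ratios describe a remainder chosen from these data. Over all low counts the ratios were 1.26 (1.02 to 1.56) for Igha and 0.892 (0.793 to 1.00) for Igkc. Leaving out Langerhans and NK cell-like cells, Igha had 64 UMIs in RHS skin and 7 in control skin, or 1.36 and 0.143 CPM, a ratio of 9.50 (4.35 to 24.6). It was found in 15 of 20 other groups of cells in RHS skin and in 5 in control skin. The Lyz1, Cd209a and Fcrls clusters had 26 Igha UMIs in RHS skin, 1 in each of 26 cells, and 0 in control skin. With that 0 set at a floor of 3 counts, the level was 7.81-fold higher in RHS skin. By cluster the 26 UMIs of RHS skin were 15, 6 and 5. Leaving out regulatory T cell-like cells and the mixed cluster, Igkc had 218 UMIs in RHS skin and 99 in control skin, or 4.41 and 1.94 CPM, a ratio of 2.27 (1.78 to 2.91). Its level was higher in RHS skin in 15 of 20 groups and lower in 4. The part in these counts of the RNA of the IgA-high barcodes, which are in RHS skin alone, was not tested.

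The non-immune classes also held thin counts. Keratinocyte, endothelial, fibroblast, mural and melanocyte-like cells together had 26 Igkc UMIs in RHS skin and 6 in control skin, or 4.53 and 0.517 CPM, a ratio of 8.76 (3.53 to 26.0). Igkc was found in 1.80% of these cells in RHS skin and 0.149% in control skin. Igha had 6 UMIs in RHS skin and 3 in control skin, a ratio of 4.04 (0.864 to 25.0) whose interval included 1, and Ighm had 7 and 5 UMIs. Igha was 18.8% (7.21 to 36.4) of the Igha and Igkc UMIs of these classes in RHS skin and 33.3% (7.49 to 70.1) in control skin. In the Lyz1, Cd209a and Fcrls clusters of RHS skin it was 32.5% (22.4 to 43.9), and in the IgA-high barcodes 37.6%. In macrophage-like cells of RHS skin this share was 25% (12.7 to 41.2). In alpha-beta T cell-like cells of RHS skin it was lower, 5.77% (1.21 to 15.9), from 3 Igha and 49 Igkc UMIs. For Ighm the same count, without regulatory T cell-like cells and the mixed cluster, gave 926 UMIs in RHS skin and 820 in control skin, a ratio of 1.17 (1.06 to 1.28). By group, however, its level was higher in RHS skin in 9 of 20 and lower in 10. Macrophage-like cells held 327 of these UMIs in RHS skin and 159 in control skin, and were 14.2% and 6.97% of the cells. The part of the cell mix in this pooled ratio was not tested.

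Genes whose counts resembled those of the members were named by a set measure. Among 123 other genes with 10 or more UMIs in at least 3 high-count barcodes, the 5 with the highest CPM in high-count over other barcodes were Gm30211 (6877), Pou2af1 (529.9), Trp53inp1 (23.7), Txndc5 (15.3) and Glipr1 (12.4). Txndc5 encodes a folding enzyme of the endoplasmic reticulum. Candidates needed UMIs in the same high-count barcodes, so their high ratios follow in part from the choice. The measure also pools the 2 kinds of barcode: 73 of the 89 Pou2af1 UMIs and 53 of the 57 Txndc5 UMIs were in the IgA-high barcodes. Over the 44 combinations of class and library without high-count barcodes, the genes with the highest Pearson correlation of log2(CPM + 1) with Igkc were Cd79b (r = 0.73), Ncmap (0.72), Slc7a10 (0.66), Ccl21a (0.61) and AW146154 (0.60). Ncmap and Ccl21a are leading genes of subgroups of the mixed cluster, which also held the B cell-like cells. For Jchain, with 21 UMIs in these cells, the highest r was 0.55 (Gm29282), followed by 0610040F04Rik (0.53), Kpna4 (0.52), Gm15728 (0.50) and Stfa2l1 (0.49), and counts this sparse give no finding. The combinations share libraries and differ in depth.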

How the data were processed

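The values deposited are UMI counts, integers per the file headers, and their differing totals per barcode show no normalization. The submitters' processing notes name GRCm39, Cell Ranger, Seurat 5.1.0 and R 3.6.0, without roles; no source used here gives the program behind the skin counts. Every skin barcode held at least 500 UMIs. Barcodes under 200 genes or over 20% mitochondrial UMIs were dropped, and doublets scored with Scrublet in scanpy 1.11.5 (expected share 6%) were removed, 115 (0.880%) in RHS and 146 (1.15%) in control skin. This left 12953 and 12577 cells. Totals per library used all barcodes.

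Kept cells of both skin libraries were clustered together without immunoglobulin rows, Jchain and Mzb1 (2000 variable genes, 30 principal components, 15 neighbours, Leiden resolution 1.0). Clusters were named from marker lists, needing at least 3 markers with a UMI in 5% of cells and over 2 times the mean of other clusters. Intervals were exact (Poisson, Clopper-Pearson, conditional binomial; scipy 1.17.1). Cells are not replicates and each group had 1 library, so no test was run. Ratio calls and intervals were tried on simulated library totals with Poisson counts. That simulation held no barcodes, so it does not cover genes whose counts lie in few barcodes, as for Igha, Igkc and Jchain. Printed sequences came from GENCODE vM21 (GRCm38), so no coordinates are given.

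The 6 members, the marker lists and the gene lists were chosen with earlier results of these data known. Members were always named, other constant rows from 20 UMIs in a skin library, leading V rows for at most 6 high-count barcodes a library with the most member UMIs, and up to 2 highest and 2 lowest ratios per list among genes with at least 20 UMIs in a library. Genes similar to Jchain and Igkc were the 5 highest by each measure given. Genes named outside these rules (Iglc3, Iglv2, Ighe, the Ighg rows, Iglc4, Pigr, Ccl28, Siglech, Hbb-bs, Ptprc, Xbp1, Derl3, Cd79a, Cd79b, Fcrla, Vpreb3, Ms4a1 and Pou2af1 as a level) were chosen after their values were seen. The values of 1 gene of the B cell list are not reported here, though the list's counts include it.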

Additional observations from a re-analysis of the deposited data

Results flagged for a closer look

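The ganglia library, which no comparison above uses, held UMIs of all 6 members above the 3 counts that a count of 0 allows. In 4706 nuclei there were 193 UMIs of Ighm (17.4 CPM, 15.0 to 20.0), 153 of Igkc (13.8 CPM, 11.7 to 16.1), 47 of Jchain (4.23 CPM, 3.11 to 5.63) and 39 of Igha (3.51 CPM, 2.50 to 4.80). Iglc2 had 10 UMIs and Mzb1 had 4. Jchain was found in 36 nuclei, with at most 7 UMIs in a nucleus, and Ighm in 124, with at most 8. This was a nuclear library of another chemistry with no control ganglia, so its levels are not compared with skin.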

How the results depend on the processing

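No paired analysis was possible because each skin group has 1 library and the labels share only the number 1. Of 176 recalculated values, 137 kept to their range and 9 changed direction. Summed over the members, the all-barcode ratio of RHS over control was 8.70 with median-of-ratios scaling and 0.908 without the IgA-high barcodes. Without the high-count barcodes it was 0.915, against 1.03 with a minimum of 10 UMIs, 0.854 with a minimum of 50, 1.37 over barcodes with at most 2 UMIs of each member and 0.985 with median-of-ratios scaling. By gene, direction changed for Ighm (1.04 with median of ratios over all barcodes; 1.22 over barcodes with at most 2 UMIs, without high-count barcodes), Igkc (0.880 and, for Iglc2, 0.582 without the IgA-high barcodes; for Igkc 1.09 with a minimum of 10 and 2.19 with at most 2 UMIs). High-count barcodes numbered 28 in RHS and 46 in control skin with a minimum of 10 UMIs, and 10 and 0 with a minimum of 50. Thinning to 1000 UMIs gave Igha in 2.56% and 4.00% of Langerhans cell-like cells, Ighm in 19.6% and 25.7% and Igkc in 13.0% and 12.5% of regulatory T cell-like cells, in RHS and control skin; thinning by its construction lowers shares. At resolution 2.0 Igha was in 19.7% and 21.0% of Langerhans cell-like cells, and the cause was not tested. Genes past 1.5-fold numbered 3350, against 7855 with a minimum of 1 UMI and 2119 with 100, as more or fewer genes were tested. The 8 IgA-high barcodes stayed in 1 cluster at each resolution and with immunoglobulin rows kept. A difference in the low counts of Jchain, 12 UMIs in RHS skin and 9 in control skin, was not detectable at this depth.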
